A study of Mus musculus with 24 samples.

Results

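Aminoacyl-tRNA synthetases were examined in mouse splenic conventional T cells (Tconv CD4+) that carried one of a pair of mitochondrial DNA (mtDNA) haplotypes. The members were 35 nuclear genes of the 55414 genes in the deposited table, chosen by name and function and not by their measured values. Of these, 19 encode synthetases of the cytosol and 16 encode synthetases that are imported into mitochondria. Bulk RNA was measured in 24 libraries, 6 in each of 4 groups, from mice with mtDNA B6 (labelled WT) or mtDNA NZB (labelled NZB), resting (RES) or activated (ACT). Both haplotypes sat on the same C57BL/6J nuclear genome, so every synthetase gene was of the same origin in all groups. The mtDNA of one strain came from C57BL/6J and that of the other from NZB. The paper states that males aged 2 to 3 months served in most of its experiments, without giving sex or age for these libraries. CD4+ CD25- cells were taken from the spleen with magnetic beads. The activated cells spent 72 h with beads that bind CD3 and CD28, plus the cytokine IL-2 as the paper's methods read. The labels call the cells TE and do not say which libraries came from separate animals, so p-values measure the spread between libraries, which may be technical in part.

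Each synthetase joins one amino acid to its transfer RNAs, and the charged tRNAs are then brought to the ribosome. Cytosolic enzymes, whose gene symbols mostly end in 1, serve the ribosomes that translate nuclear messages. Mitochondrial enzymes, whose symbols end in 2, are also made in the cytosol but charge the tRNAs encoded in mtDNA, which serve the few respiratory chain proteins made inside the organelle. T cells that leave the resting state grow and divide, and their need for charged tRNA grows with protein synthesis. Amino acid shortage is sensed through uncharged tRNA by the kinase GCN2, which raises the transcription factor ATF4, and several cytosolic synthetase genes are known ATF4 targets.

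Libraries held 51409 to 6449395 counts of unique molecular identifiers (UMIs), which tag single RNA molecules so that amplified copies are counted once. The smallest was resting mtDNA NZB replicate 2, and the next smallest held 641467. Levels below are CPM, counts relative to library size after TMM scaling, and 1 count in the smallest library is worth 19.5 CPM before and 16.9 CPM after that scaling. The libraries fell into 3 sets of 8 by reads per UMI (1.88 to 1.96, 2.11 to 2.24 and 2.68 to 2.80), and the first set held 0 of 6 resting and 5 of 6 activated mtDNA B6 libraries. T cell markers (Cd3d, Cd3e, Cd3g, Cd4, Trac and Lck) were present in every library, with summed levels of 2834 to 5014 CPM. Markers of other cells moved with activation. The sum of 6 B cell markers had medians of 13000 (mtDNA B6) and 16160 CPM (mtDNA NZB) at rest against 5516 and 4590 CPM after activation. Over 6 myeloid markers the medians were 1472 and 835 CPM against 25.8 and 48.6 CPM, with C1qa at 0 in all activated libraries. For 7 granulocyte markers they were 2239 and 527 CPM against 23.2 and 43.5 CPM, and for 7 erythroid markers 1381 and 239 CPM against 26.4 and 34.0 CPM. In mtDNA NZB Hemgn, of the erythroid list, went the other way. It had 0 to 12 counts at rest, apart from 103 in replicate 6, and 22 to 86 counts after activation. The sum of 5 CD8 T and NK cell markers was higher after activation (medians of 532 and 345 CPM against 234 and 211 CPM), as was that of 4 platelet markers (147 and 103 CPM against 19.0 and 17.8 CPM). Within the CD8 T and NK cell list Klrb1c went down, from 18 to 36 counts at rest to 2 to 16 counts after activation in mtDNA B6. In mtDNA NZB it had 2 to 40 and 0 to 7 counts, and Ncr1 had at most 4 counts in any library. Resting mtDNA NZB replicate 6 stood apart with 13220 CPM of granulocyte markers, against 297 to 1948 CPM in the other resting mtDNA NZB libraries. The part of these other cells in the synthetase values was not tested. In bulk RNA, fewer cells of a type and less RNA per cell cannot be told apart. Beside a number of results, values are also given over the 21 libraries without mtDNA NZB resting replicates 2 and 6 and activated replicate 6.

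All but 3 members had enough counts to be tested, which left 18 cytosolic and 14 mitochondrial genes. The 3 were Aars1 (74 counts over all 24 libraries), Mars2 (4 counts) and Nars2 (154 counts), which encode the cytosolic alanyl-, mitochondrial methionyl- and mitochondrial asparaginyl-tRNA synthetases. Aars1 measured 1.13 to 2.35 CPM in resting and 0.306 to 0.848 CPM in activated mtDNA B6 libraries. Its last exon overlaps Exosc6 on the same strand, so reads of both genes can be divided between them. Mars2 had no count in 20 of 24 libraries. The members lie on 15 chromosomes, and 8 of them overlap a gene on the other strand within the last 1000 bases, Mars1 with Ddit3 and Cars2 with Naxd among them. The sources do not state whether counting used strand, so reads of such pairs may be mixed.

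Summed over the 19 genes, cytosolic synthetase RNA took a larger share of the counts after activation in both haplotypes. The share was 0.140 to 0.179% (median 0.157%) in resting and 0.223 to 0.258% (median 0.237%) in activated mtDNA B6 libraries. In mtDNA NZB libraries it was 0.134 to 0.183% (median 0.143%) at rest and 0.201 to 0.262% (median 0.239%) after activation. Resting and activated libraries did not overlap in either haplotype. The share of the 16 mitochondrial synthetases together overlapped between states, at 0.0342 to 0.0390% in resting and 0.0321 to 0.0387% in activated mtDNA B6 libraries, and the ranges overlapped in mtDNA NZB too (0.0246 to 0.0447% and 0.0301 to 0.0391%). The ratio of the 2 sums was 3.89 to 4.61 at rest and 6.32 to 7.28 after activation in mtDNA B6 libraries. For mtDNA NZB the ratio was 4.00 to 6.32 at rest and 6.43 to 7.10 after activation, and the highest resting value belonged to replicate 6, with 5.12 in the next library. Within the set at 2.11 to 2.24 reads per UMI, the ratio was 3.89 to 4.61 in 4 resting and 7.28 in 1 activated mtDNA B6 library. The same set gave 4.12 in 1 resting and 6.43 and 7.10 in 2 activated mtDNA NZB libraries. In the set at 2.68 to 2.80 reads per UMI the ratio was 4.09 to 6.32 in 4 resting and 6.58 and 6.68 in 2 activated mtDNA NZB libraries. The remaining set held 1 resting library, of mtDNA NZB, at 4.00 against 6.32 to 7.17 in 7 activated libraries.

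**Figure D1:**
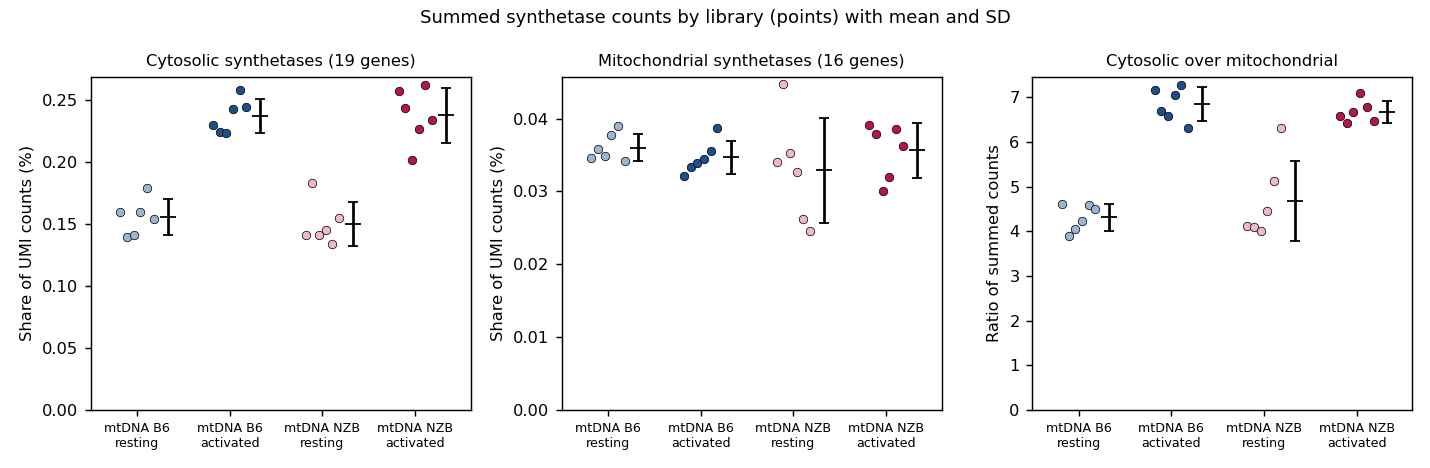
Share of UMI counts (%) taken by the 19 cytosolic (left) and 16 mitochondrial (middle) synthetase genes and the ratio of the 2 sums (right), 1 point per library, 6 libraries per group, with mean and SD beside the points. The cytosolic share is 0.134 to 0.183% in the resting and 0.201 to 0.262% in the activated libraries, while the mitochondrial share overlaps between states.

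Every cytosolic synthetase that was called on activation rose. In mtDNA B6 cells 8 of 18 tested cytosolic genes rose at an adjusted p of at most 0.05 (edgeR's quasi-likelihood test with p-values adjusted by Benjamini-Hochberg over 10566 genes, the rule for every call here), with no fold cut-off, against 22.4% of all tested genes. In mtDNA NZB cells 11 of 18 rose, against 25.2% of all genes. The 8 genes called in mtDNA B6 were all among the 11, namely Wars1, Gars1, Kars1, Rars1, Hars1, Iars1, Qars1 and Vars1, and the mtDNA NZB calls added Farsb, Mars1 and Farsa. The call count for falls was 0 in both haplotypes by edgeR and by DESeq2, against 24.5% and 28.4% of all genes in edgeR. At an unadjusted p under 0.05, 0 cytosolic genes were lower after activation in mtDNA B6 and 1 (Cars1) in mtDNA NZB. Over all genes 5643 and 6193 of 10566 had such a p-value, in either direction. The median log2 fold change over the 18 genes was 0.42 in mtDNA B6 and 0.55 in mtDNA NZB, beside -0.03 and -0.06 over all tested genes. Over the 21 libraries 11 cytosolic genes rose in each haplotype, of 10826 tested genes in all, and in mtDNA NZB these were the genes above without Farsb and with Tars1. The share of all genes that rose in that fit is not given here. These counts therefore show only which members keep, lose or gain a call.

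**Figure D2:**
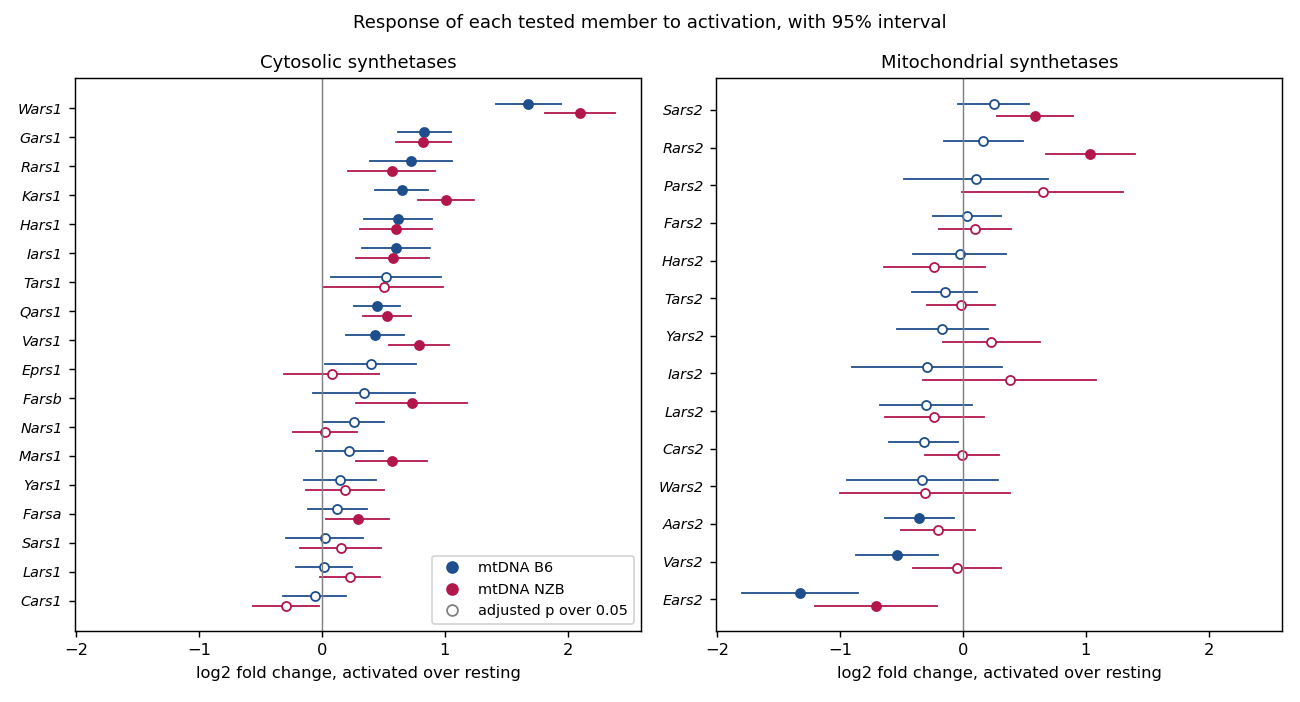
Log2 fold change (activated over resting) of the 18 cytosolic (left) and 14 mitochondrial (right) tested members, with 95% intervals, in mtDNA B6 and mtDNA NZB cells, 6 libraries per group. Filled points passed an adjusted p of 0.05, and the cytosolic genes lie mostly right of 0, from -0.29 to 2.10, while the mitochondrial genes lie on both sides, from -1.33 to 1.04.

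Wars1, the cytosolic tryptophanyl-tRNA synthetase, rose the most of all members. The gene (ENSMUSG00000021266) lies on the minus strand of chromosome 12 (GRCm39, chr12:108825955-108860188) and is known to respond to interferon gamma. It measured 41.0 to 59.0 CPM (median 44.7) in resting and 138 to 165 CPM (median 155) in activated mtDNA B6 libraries. In mtDNA NZB libraries it measured 29.7 to 84.7 CPM (median 43.2) at rest and 142 to 199 CPM (median 176) after activation. The ranges did not overlap in either haplotype, and the resting value of 84.7 CPM rests on 5 counts in the smallest library. The rise was 3.21-fold in mtDNA B6 (log2 fold change 1.68 ± 0.13 SE, adjusted p = 1.40e-10) and 4.29-fold in mtDNA NZB (2.10 ± 0.14, adjusted p = 1.15e-11). Within the set at 2.11 to 2.24 reads per UMI, Wars1 measured 44.4 to 53.0 CPM in 4 resting and 148 CPM in 1 activated mtDNA B6 library. Wars2, its mitochondrial counterpart, measured 1.77 to 5.96 CPM at rest and 1.58 to 3.64 CPM after activation in mtDNA B6, a log2 difference of -0.33 with a 95% interval from -0.95 to 0.29. In mtDNA NZB Wars2 measured 0 to 4.48 CPM and 1.74 to 4.31 CPM, a log2 difference of -0.31 (interval from -0.999 to 0.38).

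Kars1 encodes the single lysyl-tRNA synthetase gene that serves both the cytosol and mitochondria, and is counted here with the cytosolic genes. It lies on the minus strand at chr8:112719747-112738004. Levels were 122 to 159 CPM (median 145) in resting and 197 to 243 CPM (median 221) in activated mtDNA B6 libraries. In mtDNA NZB they were 104 to 136 CPM (median 122) and 186 to 290 CPM (median 233). Neither pair of ranges overlapped, and the rise was 1.57-fold in mtDNA B6 (log2 fold change 0.65 ± 0.11, adjusted p = 1.71e-05) and 2.01-fold in mtDNA NZB (1.01 ± 0.11, adjusted p = 5.14e-08). Gars1, glycyl-tRNA synthetase, is likewise one gene for both compartments. Its levels went from 113 to 158 CPM at rest to 212 to 267 CPM in activated mtDNA B6 libraries, and from 119 to 158 CPM to 204 to 304 CPM in mtDNA NZB. Its rise was 1.78-fold and 1.77-fold in the 2 haplotypes (log2 fold changes of 0.83 and 0.83), again with no overlap.

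Vars1, cytosolic valyl-tRNA synthetase, had the most counts of the members (26317 over all libraries). It measured 256 to 311 CPM (median 301) in resting and 325 to 441 CPM (median 396) in activated mtDNA B6 libraries. In mtDNA NZB the values were 180 to 306 CPM (median 234) and 389 to 503 CPM (median 410). Activated libraries were above all resting ones in both haplotypes, by 1.35-fold in mtDNA B6 (adjusted p = 0.00289) and 1.73-fold in mtDNA NZB (adjusted p = 4.33e-06). Hars1, cytosolic histidyl-tRNA synthetase, measured 70.2 to 107 CPM (median 82.5) at rest and 107 to 146 CPM (median 133) after activation in mtDNA B6. The mtDNA NZB values were 64.4 to 116 CPM (median 89.0) and 108 to 152 CPM (median 128), so the mtDNA NZB ranges overlapped. Its rise was 1.54-fold (adjusted p = 0.000532) and 1.52-fold (adjusted p = 0.000926).

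The multi-tRNA synthetase complex, a particle that holds several cytosolic enzymes together on scaffold proteins, is known to contain 7 of the members. They are Eprs1, Iars1, Kars1, Lars1, Mars1, Qars1 and Rars1, and 4 of the 7 rose in mtDNA B6 and 5 in mtDNA NZB, with median log2 fold changes of 0.45 and 0.57. Of the 11 other tested cytosolic genes 4 rose in mtDNA B6 and 6 in mtDNA NZB, with medians of 0.34 and 0.50. Among all tested genes 22.4% and 25.2% rose. Rars1, cytosolic arginyl-tRNA synthetase, measured 48.9 to 63.5 CPM (median 54.9) in resting and 79.6 to 102 CPM (median 94.95) in activated mtDNA B6 libraries. The mtDNA NZB libraries held 36.9 to 87.9 CPM (median 52.1) and 74.8 to 101.1 CPM (median 93.1). The resting values of 86.6 and 87.9 CPM, in replicates 5 and 6, reached into the activated range. The rise was 1.66-fold (adjusted p = 0.000671) and 1.48-fold (adjusted p = 0.00703). Iars1, cytosolic isoleucyl-tRNA synthetase, measured 53.3 to 76.3 CPM (median 60.2) and 80.8 to 101.1 CPM (median 97.3) in mtDNA B6, and 16.9 to 65.1 CPM (median 53.4) and 56.9 to 99.7 CPM (median 82.9) in mtDNA NZB. It rose 1.52-fold and 1.49-fold (adjusted p = 0.000666 and 0.00148). Qars1, glutaminyl-tRNA synthetase, is needed for a tRNA that mitochondria charge by a different route, and it rose 1.37-fold and 1.44-fold without overlap of the ranges.

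Mars1, the methionyl-tRNA synthetase of the complex, was called in mtDNA NZB and not in mtDNA B6. It measured 67.9 to 81.2 CPM (median 77.2) and 75.0 to 113 CPM (median 84.5) in mtDNA B6, a log2 fold change of 0.23 with a 95% interval from -0.04 to 0.50. The mtDNA NZB values were 16.9 to 71.9 CPM (median 62.6) and 70.4 to 112 CPM (median 88.5), a 1.48-fold rise (adjusted p = 0.00130). Ddit3, whose end overlaps that of Mars1 on the other strand, went the other way and fell. Eprs1, a joined glutamyl- and prolyl-tRNA synthetase, measured 71.2 to 96.7 CPM (median 89.0) and 102 to 129 CPM (median 112) in mtDNA B6, with no overlap and an adjusted p of 0.0719. Its call appears over the 21 libraries (adjusted p = 0.0347) and without resting mtDNA NZB replicate 2 or 6 (0.0399 and 0.0416). In mtDNA NZB Eprs1 measured 33.9 to 153 CPM at rest and 80.2 to 135 CPM after activation, a log2 difference of 0.08 (interval from -0.31 to 0.47). Lars1, the leucyl enzyme of the complex, had log2 differences of 0.02 and 0.23 and was not called in either haplotype.

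Farsa and Farsb encode the 2 subunits of cytosolic phenylalanyl-tRNA synthetase. Farsb measured 22.5 to 26.6 CPM (median 24.1) in resting and 21.4 to 37.9 CPM (median 30.4) in activated mtDNA B6 libraries. The mtDNA NZB values were 7.23 to 25.5 CPM (median 18.5) and 17.0 to 39.1 CPM (median 29.0), a 1.66-fold rise (adjusted p = 0.00673) that was not called over the 21 libraries (log2 fold change 0.42, adjusted p = 0.0653). Farsa measured 71.8 to 86.1 CPM (median 83.2) and 77.7 to 111 CPM (median 87.4) in mtDNA B6. Its mtDNA NZB values were 16.9 to 87.9 CPM (median 79.9) and 81.8 to 113 CPM (median 92.5), a 1.22-fold rise at an adjusted p of 0.0498. That call is lost without any one of 17 libraries, at adjusted p-values of 0.0506 to 0.125. Fars2, the mitochondrial phenylalanyl enzyme, measured 23.5 to 31.2 CPM and 22.1 to 33.04 CPM in mtDNA B6, and 16.9 to 38.5 CPM and 26.6 to 36.6 CPM in mtDNA NZB. Its log2 differences were 0.03 and 0.10, and neither was called.

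The cytosolic genes left over were called in neither haplotype. Sars1, seryl-tRNA synthetase, measured 104 to 145 CPM (median 127) and 109 to 144 CPM (median 127) in mtDNA B6, a log2 difference of 0.02 with an interval from -0.29 to 0.34. In mtDNA NZB its values were 110 to 339 CPM (median 125) and 128 to 201 CPM (median 147). The value of 339 CPM comes from the smallest library, and without that library the rise is called (log2 fold change 0.32, adjusted p = 0.0215). Tars1, threonyl-tRNA synthetase, had log2 differences of 0.52 (adjusted p = 0.0501) and 0.50 (adjusted p = 0.0726), both called over the 21 libraries (adjusted p = 0.0355 and 0.0128). For Cars1, Nars1 and Yars1, the cysteinyl, asparaginyl and tyrosyl enzymes, the log2 differences ran from -0.06 to 0.26 in mtDNA B6 and from -0.29 to 0.19 in mtDNA NZB. Cars1, at -0.29 in mtDNA NZB (adjusted p = 0.0647), is called as lower without activated mtDNA NZB replicate 5 or resting replicate 1 or 4 (adjusted p-values of 0.0157 to 0.0413).

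The mitochondrial synthetases did not move as a block. In mtDNA B6 cells 3 of 14 tested genes fell (Ears2, Vars2 and Aars2) and 0 rose, by edgeR. At an unadjusted p under 0.05, 4 were lower and 0 higher, beside 5643 of 10566 genes in either direction. DESeq2 called 0 as higher. In mtDNA NZB cells 1 of 14 fell (Ears2) and 2 rose (Rars2 and Sars2). Among all genes 24.5% fell and 22.4% rose in mtDNA B6, and 28.4% fell and 25.2% rose in mtDNA NZB. The 3 falls in 14 in mtDNA B6 thus lie near the share of all genes. The median log2 fold change was -0.23 in mtDNA B6 and -0.01 in mtDNA NZB.

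Ears2 encodes mitochondrial glutamyl-tRNA synthetase, which charges the tRNAs of both glutamate and glutamine before the latter is converted by an amidotransferase. It lies on the minus strand at chr7:121635056-121666864 (ENSMUSG00000030871). It measured 12.8 to 24.5 CPM (median 21.3) in resting and 6.36 to 9.90 CPM (median 7.92) in activated mtDNA B6 libraries. The mtDNA NZB values were 0 to 21.7 CPM (median 16.2) and 7.62 to 15.8 CPM (median 10.3). All activated mtDNA B6 libraries were below all resting ones, whereas the mtDNA NZB ranges overlapped, with the smallest library at 0 and resting replicate 6 at 9.23 CPM. The fall was 2.51-fold in mtDNA B6 (log2 fold change -1.33 ± 0.23, adjusted p = 3.91e-05) and 1.63-fold in mtDNA NZB (-0.71 ± 0.24, adjusted p = 0.0158). The mtDNA NZB call is lost without resting replicate 1 (log2 fold change -0.60, adjusted p = 0.0518), and over the 21 libraries it stands at -0.79 (adjusted p = 0.00549). Resting levels also differed by library set within mtDNA B6, with 20.2 to 24.5 CPM in 4 libraries at 2.11 to 2.24 reads per UMI and 12.8 and 15.4 CPM in 2 libraries at 2.68 to 2.80.

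Vars2, mitochondrial valyl-tRNA synthetase, measured 36.2 to 48.0 CPM (median 42.4) in resting and 21.6 to 32.4 CPM (median 30.7) in activated mtDNA B6 libraries. The ranges did not overlap, and the fall was 1.45-fold (log2 fold change -0.53 ± 0.16, adjusted p = 0.00883). The mtDNA NZB libraries held 20.9 to 67.8 CPM (median 38.0) and 24.8 to 39.6 CPM (median 32.8), a log2 difference of -0.05 with an interval from -0.41 to 0.31. Aars2, mitochondrial alanyl-tRNA synthetase, measured 23.3 to 29.0 CPM (median 25.5) and 16.8 to 28.1 CPM (median 19.3) in mtDNA B6. Its fall of 1.28-fold (adjusted p = 0.0355) is lost without any one of 12 libraries (adjusted p-values of 0.05004 to 0.0886), by DESeq2 (0.0866) and with the library set as a term (0.132). In mtDNA NZB it measured 19.0 to 33.9 CPM (median 28.4) and 18.3 to 26.9 CPM (median 24.2), and the log2 difference was -0.20 (interval from -0.50 to 0.10).

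Rars2 encodes mitochondrial arginyl-tRNA synthetase, on the plus strand at chr4:34614638-34660904 (ENSMUSG00000028292). As background, the mitochondrial arginine tRNA is among the places where the mtDNA of the 2 strains is known to differ, and no test here bears on a link with it. The gene measured 21.1 to 26.6 CPM (median 24.5) in resting and 25.2 to 31.1 CPM (median 26.8) in activated mtDNA B6 libraries. In mtDNA NZB it measured 0 to 18.5 CPM (median 12.6) at rest and 24.4 to 33.3 CPM (median 29.4) after activation. The resting mtDNA NZB libraries were thus below every other library. The rise was 2.05-fold in mtDNA NZB (log2 fold change 1.04 ± 0.17, adjusted p = 2.14e-05), and 0.83 over the 21 libraries (adjusted p = 0.000137). In mtDNA B6 the log2 difference was 0.17 with an interval from -0.16 to 0.49. Sars2, mitochondrial seryl-tRNA synthetase, measured 29.0 to 37.4 CPM (median 34.3) and 31.7 to 50.7 CPM (median 39.0) in mtDNA B6, a log2 difference of 0.25 (interval from -0.04 to 0.54). In mtDNA NZB it measured 23.8 to 35.05 CPM (median 28.1) and 32.7 to 57.3 CPM (median 40.8), a rise of 0.59 on the log2 scale (adjusted p = 0.00203).

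Hars2 and Iars2, the mitochondrial histidyl and isoleucyl enzymes, were called in neither haplotype. Hars2 measured 14.3 to 18.6 CPM (median 16.5) and 10.3 to 21.4 CPM (median 16.9) in mtDNA B6, and 14.9 to 50.8 CPM (median 16.9) and 10.5 to 18.7 CPM (median 15.4) in mtDNA NZB. Iars2 measured 2.84 to 7.05 CPM (median 4.64) and 2.30 to 5.62 CPM (median 3.82) in mtDNA B6, and 1.68 to 16.9 CPM (median 3.09) and 2.88 to 6.19 CPM (median 3.72) in mtDNA NZB. With 293 counts in all, its intervals were wide, from -0.91 to 0.32 and from -0.32 to 1.09 on the log2 scale. The other tested mitochondrial genes (Cars2, Lars2, Pars2, Tars2 and Yars2, for cysteine, leucine, proline, threonine and tyrosine) had log2 differences of -0.32 to 0.11 in mtDNA B6 and -0.23 to 0.65 in mtDNA NZB. None of these 5 was called, although Cars2 was over the 21 libraries in mtDNA B6 (-0.32, adjusted p = 0.0377) and Pars2 in mtDNA NZB (0.82, adjusted p = 0.0209).

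For 11 amino acids a tested enzyme of each compartment could be set side by side, with phenylalanine's cytosolic value taken as the mean of Farsa and Farsb. In mtDNA B6 the cytosolic log2 fold change was above the mitochondrial one for 10 of the 11, with a median difference of 0.56. In mtDNA NZB it was above for 7 of the 11, with a median of 0.42. These differences compare 2 genes in the same libraries and are given without a test. The widest gap was that of tryptophan, 2.01 in mtDNA B6 and 2.41 in mtDNA NZB. Valine followed in mtDNA B6 (0.97), where Vars1 rose and Vars2 fell. Serine was the exception in both haplotypes, at -0.23 and -0.43, with the mitochondrial enzyme above the cytosolic one. The difference had another sign in each haplotype for arginine (0.56 in mtDNA B6 and -0.47 in mtDNA NZB), cysteine (0.26 and -0.28) and tyrosine (0.31 and -0.04).

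**Figure D3:**
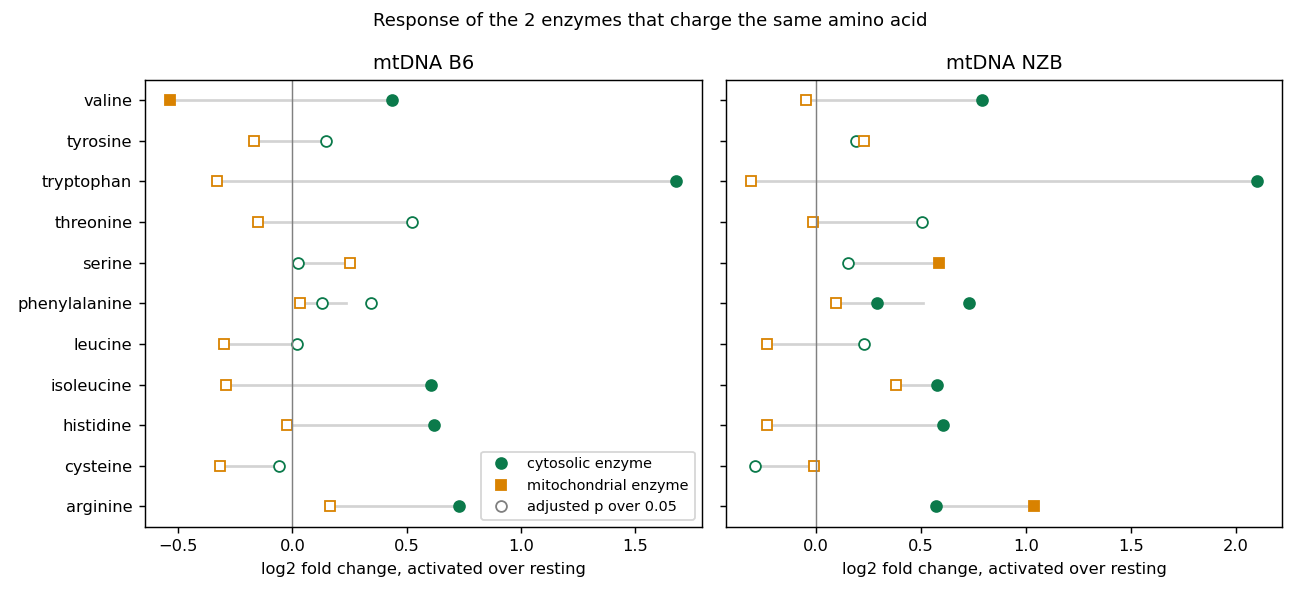
Log2 fold change on activation (x axis) of the cytosolic (circles) and mitochondrial (squares) synthetases of 11 amino acids in mtDNA B6 (left) and mtDNA NZB (right) cells. Filled symbols passed an adjusted p of 0.05, and the cytosolic enzyme lies to the right for 10 of 11 amino acids in mtDNA B6 and 7 of 11 in mtDNA NZB.

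**Figure D4:**
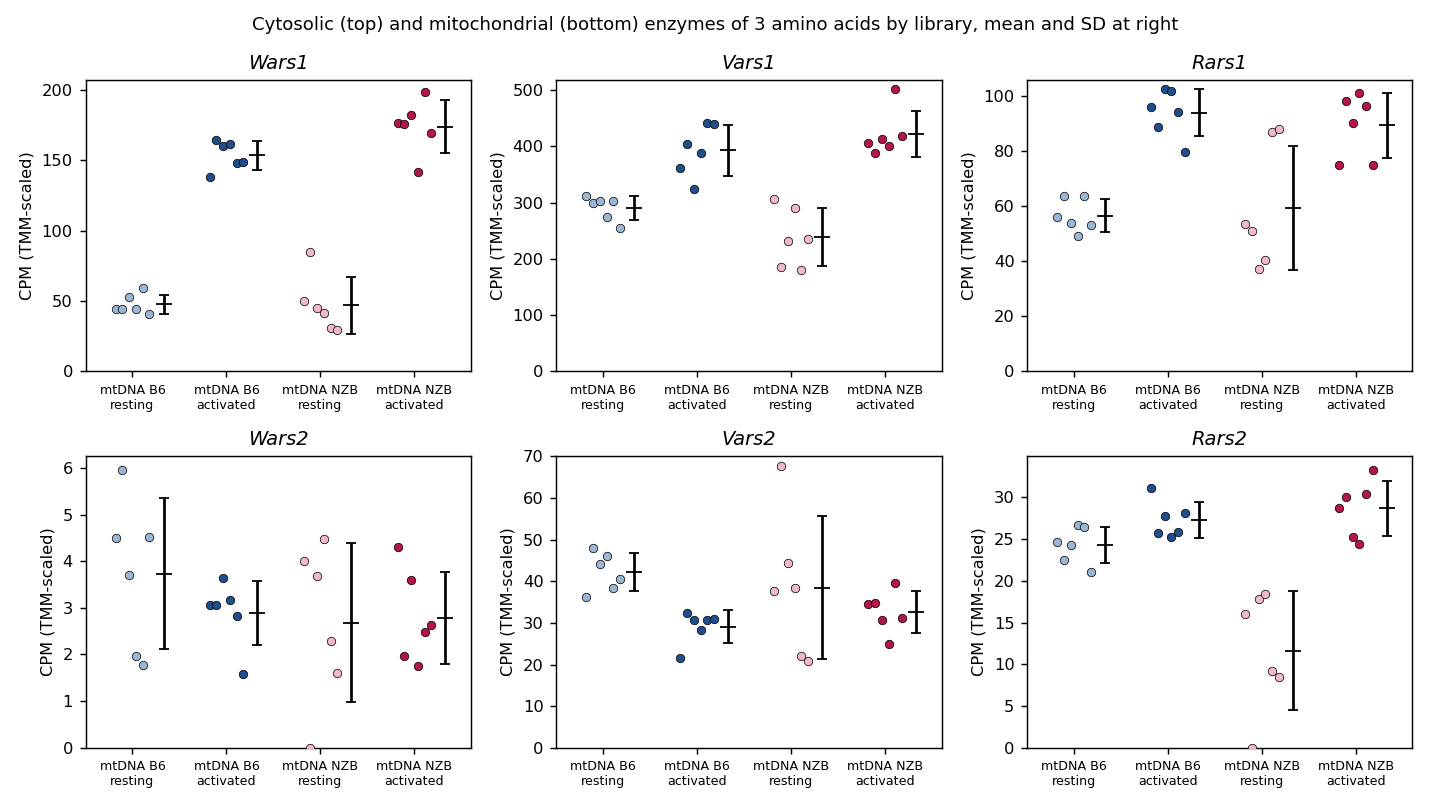
Levels (CPM after TMM scaling) of the cytosolic (top) and mitochondrial (bottom) enzymes of tryptophan, valine and arginine, 1 point per library, 6 libraries per group, with mean and SD. Wars1 rises from 29.7 to 84.7 CPM at rest to 138 to 199 CPM after activation, and the resting mtDNA NZB libraries of Rars2 (0 to 18.5 CPM) lie below all other libraries.

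Synthetases fall into a pair of structural classes that differ in the fold of their catalytic domain and in how they approach the tRNA. Genes of both classes were among the cytosolic genes that rose. Of 9 class I genes 5 rose in mtDNA B6 and 6 in mtDNA NZB (medians of 0.43 and 0.57), and of 8 tested class II genes 3 and 5 rose (medians of 0.43 and 0.55), leaving aside Eprs1, which holds both classes. Among all tested genes 22.4% rose and 24.5% fell in mtDNA B6, and 25.2% rose and 28.4% fell in mtDNA NZB. Of 8 tested mitochondrial class I genes 2 fell in mtDNA B6, and 1 fell and 1 rose in mtDNA NZB. By sign alone, whether called or not, 7 of the 8 had negative values in mtDNA B6 and 5 in mtDNA NZB (medians of -0.31 and -0.03), beside 5462 and 5590 of all 10566 genes. Of 6 class II genes 1 fell in mtDNA B6 and 1 rose in mtDNA NZB, and 3 had negative values in each haplotype (medians of 0.00 and 0.04).

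Between haplotypes, resting cells differed in 1 member. Rars2 was 1.73-fold lower in mtDNA NZB (log2 difference -0.79 ± 0.17, adjusted p = 0.0298), and its 6 mtDNA NZB libraries lay below the 6 mtDNA B6 libraries. Among all genes 0.861% were lower and 1.9% higher in resting mtDNA NZB, which is 91 and 201 genes, against 420 and 242 genes over the 21 libraries. Within library sets Rars2 measured 16.0 CPM in mtDNA NZB against 22.5 to 26.6 CPM in mtDNA B6 (2.11 to 2.24 reads per UMI), and 0 to 18.5 CPM against 21.1 and 26.4 CPM (2.68 to 2.80). The lowest values, of 9.17 and 8.43 CPM beside the 0 of the smallest library, were those of replicates 5 and 6. Granulocyte markers summed to 297 CPM in replicate 5 and 13220 CPM in replicate 6. Resting mtDNA B6 libraries held 448 to 4837 CPM of these markers and 21.1 to 26.6 CPM of Rars2. The part of granulocyte RNA in the Rars2 values was not tested. Over the 21 libraries the log2 difference was -0.64 (adjusted p = 0.0188). The call is lost without any one of 5 libraries (mtDNA NZB replicate 5 and mtDNA B6 replicates 1, 3, 4 and 5, adjusted p-values of 0.0588 to 0.128), with the library set as a term (-0.81, adjusted p = 0.0787) and in a fit of the 12 resting libraries alone (-0.80, adjusted p = 0.186). The other 31 tested members were not called, with log2 differences of -0.62 to 0.21. The edgeR count of members higher in mtDNA NZB was 0, also at an unadjusted p under 0.05 and by DESeq2. At an unadjusted p under 0.05, 3 cytosolic genes (Kars1, Mars1 and Vars1) were lower. With Rars2 that made 4 of 32 members, beside 2196 of 10566 genes in either direction.

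Among activated cells no member was called between haplotypes. By edgeR 0 members and 0% of all genes were called in either direction. At an unadjusted p under 0.05 the count was 0 of 32 members and 327 of 10566 genes, and DESeq2 called 0 genes. Over the 21 libraries 0 genes were called, with 3 members at an unadjusted p under 0.05, among them Ears2 (0.47) and Sars1 (0.28). Log2 differences of members ran from -0.21 (Iars1) to 0.38 (Ears2), and their 95% intervals show what remained possible, for example from -0.12 to 0.87 for Ears2 and from -0.25 to 0.40 for Rars2. The difference of responses (the log2 fold change on activation in mtDNA NZB minus that in mtDNA B6) was also called for 0 members and 0% of genes, against 4 members and 1512 genes at an unadjusted p under 0.05, while DESeq2 called 0 members and 1 gene. Those 4 were Rars2 (0.87, interval from 0.39 to 1.35, adjusted p = 0.207), Wars1 (0.42), Kars1 (0.36) and Vars1 (0.36). Over the 21 libraries 95 genes were called with the larger and 18 with the smaller response in mtDNA NZB, and 0 of them were members (Rars2, 0.66, adjusted p = 0.0831). So the calls made in one haplotype only, those of Mars1, Farsa, Farsb, Rars2 and Sars2 in mtDNA NZB and of Vars2 and Aars2 in mtDNA B6, do not show a difference between haplotypes.

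Genes that work beside the synthetases were read from lists chosen with results of these data known. The scaffold of the complex is made of Aimp1, Aimp2 and Eef1e1. Aimp1 rose 1.53-fold in mtDNA B6 and 1.62-fold in mtDNA NZB, and Aimp2 rose 1.68-fold and 2.04-fold. Eef1e1 fell 2.62-fold and 2.84-fold, from 7.94 to 12.8 CPM to 2.45 to 6.73 CPM in mtDNA B6 (adjusted p = 4.72e-05). The list thus held changes of both signs while 4 and 5 of the 7 bound synthetases rose. Of the 4 cytosolic delivery factors, the subunits of elongation factor 1 that bring charged tRNA to the ribosome (Eef1a1, Eef1b2, Eef1d and Eef1g), none was called, with log2 differences of -0.41 to 0.11. By edgeR 0 of these 4 had an unadjusted p under 0.05 in mtDNA B6 and 1, Eef1a1, in mtDNA NZB. Among all genes these were 5643 and 6193 of 10566.

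In mtDNA NZB 2 of 4 mitochondrial delivery factors and 2 of 4 mitochondrial tRNA charging partners rose, against 25.2% of all genes. Tufm and Tsfm, the mitochondrial elongation factor Tu and the exchange factor that reloads it, rose 1.72-fold and 2.36-fold (adjusted p = 0.000334 and 1.19e-07). In mtDNA B6 they had fold changes of 1.31 (called at an adjusted p of 0.0398, and lost without any one of 6 libraries at 0.0521 to 0.106) and 1.14 (not called). Tsfm measured 33.5 to 43.3 CPM in resting and 40.0 to 54.0 CPM in activated mtDNA B6 libraries, and 14.7 to 33.9 CPM and 42.2 to 62.6 CPM in mtDNA NZB. It was, like Rars2, lower at rest in mtDNA NZB (log2 difference -0.74, adjusted p = 0.0265). That call is lost with the library set as a term (adjusted p = 0.0787), in a fit of the 12 resting libraries alone (0.186) and without resting mtDNA NZB replicate 5 or resting mtDNA B6 replicate 1 or 4 (0.0706 to 0.103). The difference of responses was 1.05 for Tsfm and was not called (adjusted p = 0.113). It was called over the 21 libraries (1.12, adjusted p = 0.0422), and not in a fit of these 21 with a term for library set (1.00, adjusted p = 0.106). Gatb and Gatc, subunits of the amidotransferase that finishes mitochondrial glutaminyl-tRNA, each rose 2.01-fold in mtDNA NZB. In mtDNA B6 their log2 fold changes were 0.12 and 0.39 and were not called. The differences of responses of Gatb, Gatc and Tufm were not called (adjusted p = 0.207, 0.375 and 0.438), so these calls do not show a difference between haplotypes. Qrsl1, the remaining subunit, and Mtfmt, which formylates the initiator methionyl-tRNA, were called in neither. The other mitochondrial delivery factors listed, Gfm1 and Gfm2, were also called in neither (adjusted p = 0.0894 and 0.217 in mtDNA NZB). Of the genes for tRNA proofreading and CCA addition, Dtd1 fell 1.35-fold in mtDNA B6 (adjusted p = 0.00740), and no other was called.

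Genes of the amino acid response moved mostly downward. Atf4, the transcription factor, fell 3.72-fold in mtDNA B6, from 1007 to 1187 CPM to 253 to 331 CPM, and 3.98-fold in mtDNA NZB. Ddit3, which encodes CHOP, fell 4.10-fold and 4.97-fold. Eif2ak4, the gene of GCN2, fell 1.52-fold and 1.68-fold. Asns, asparagine synthetase, fell 2.70-fold in mtDNA B6 only by call (adjusted p = 0.0101), and its log2 difference in mtDNA NZB was -0.63, or 0.59 over the 21 libraries, and was called in neither fit. Trib3 rose 2.33-fold and 1.90-fold. Chac1 had a log2 difference of -1.43 in mtDNA B6 (not called) and fell by 3.71 on the log2 scale in mtDNA NZB. Resting mtDNA NZB replicate 6 held 127 counts of Chac1. The other resting libraries of that haplotype held 0 to 36 and the activated ones 0 to 13. Of the 6 genes 4 fell and 1 rose in each haplotype, with medians of -1.43 and -1.37. Among all tested genes 24.5% fell and 22.4% rose in mtDNA B6, and 28.4% fell and 25.2% rose in mtDNA NZB. Of all 24 tested related genes 10 were called in either direction in mtDNA B6 and 12 in mtDNA NZB, beside 46.9% and 53.5% of all tested genes. Summed RNA of the myeloid, granulocyte and erythroid markers given above was also lower after activation, and its part in these falls was not tested.

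Promoters were searched for 3 short motifs because many cytosolic members rose together. The windows ran from 250 bases before to 50 after the start of the canonical transcript of 21603 protein-coding genes, on GRCm39, and both strands were searched. The C/EBP-ATF element, the letters TGATGNAA that ATF4 dimers are known to bind, was found in 5 of 19 cytosolic promoters, 0 of 16 mitochondrial ones and 3.62% of all promoters. The E-box CACGTG, bound by MYC among others, was found in 4 of 19, 0 of 16 and 7.87%. The GAS motif TTCNNNGAA, bound by STAT proteins, was found in 5 of 19, 3 of 16 and 8.51%. No matches of different motifs overlapped within the members. A C/EBP-ATF match is shown for each of the 5 genes because these read the same way round, with the reverse complement of the motif on the strand of the gene. Each is printed from 5′ to 3′ on the gene's strand, with the match in capitals. Positions are on GRCm39, and the windows are chr8:111760472-111760501 (plus strand) for Aars1, chr7:143153782-143153811 (minus) for Cars1, chr6:55014945-55014974 (plus) for Gars1, chr13:49835596-49835625 (plus) for Iars1 and chr15:11399741-11399770 (minus) for Tars1.
Aars1: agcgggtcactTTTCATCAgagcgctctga
Cars1: cggcgccgcggTTGCATCAgattctggaag
Gars1: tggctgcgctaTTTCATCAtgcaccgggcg
Iars1: gcctggcactgtcagtaTTGCATCAcctcc
Tars1: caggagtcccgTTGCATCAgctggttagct

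Of these 5 genes, Gars1 and Iars1 rose in both haplotypes, Cars1 and Tars1 were called in neither and Aars1 was not tested. The E-box windows are shown for the genes that hold one, at chr8:111760316-111760345 (plus) for Aars1, chr1:78465556-78465585 (minus) for Farsb, chr13:49835525-49835554 (plus) for Iars1 and chr15:11399708-11399737 (minus) for Tars1, so that Aars1, Iars1 and Tars1 hold both motifs.
Aars1: agtcaaccctgtCACGTGacactccatgtc
Farsb: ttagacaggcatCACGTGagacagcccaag
Iars1: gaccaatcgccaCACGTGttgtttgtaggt
Tars1: tccgcctgtggcCACGTGgcgcacgcgcag

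None of the 3 motifs was found in the window of Wars1, the member with the largest rise. Rars2, at chr4:34614554-34614583 on the plus strand, held a GAS match, which is shown because it is the member that differed between haplotypes at rest.
Rars2: cttatgagtatTTCTGGGAAcagaaatcta

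A match is a run of letters and not a measured binding site, and these data hold no measurement of binding.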

How the data were processed

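RNA libraries of Tconv CD4+ cells (24, in 4 groups) were prepared by bulk MARS-seq, a method that reads 3′ ends of polyadenylated RNA. According to the methods, the authors trimmed reads with cutadapt, mapped them with STAR to regions of 1000 bases at the 3′ end of genes (GRCm39, Ensembl annotation), counted them per gene with HTSeq, merged reads of the same UMI and corrected for saturation. Versions are not given in the sources used here. The authors deposited these corrected counts as whole numbers without scaling for depth. Another deposited table holds larger counts, read here as those before UMI merging, and served as an alternative. There was 1 column that matched no sample, and it was not used.

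Samples were grouped by their labels. The members, lists, call rule and alternatives were chosen with earlier results of these data known. Counts were analysed with edgeR 4.0.16 in R 4.3.3 (limma 3.58.1, DESeq2 1.42.0), with TMM scaling, filterByExpr by group (10566 of 55414 genes kept) and 1 quasi-likelihood fit over 24 libraries. Benjamini-Hochberg adjustment ran over all tested genes and genes were called at adjusted p-values up to 0.05. The standard error is the log2 fold change divided by the square root of F, and intervals are 95%. edgeR limits some p-values from below at low dispersion, so a few do not follow from the SE. Levels are TMM-scaled CPM, fold changes are fitted values. The lowest, median and highest levels are given for members called on activation in both haplotypes whose log2 fold change reached 1 in size in either, for members called in opposite directions or between haplotypes, and for both enzymes of an amino acid where the calls of the compartments differed. Chi-square tests found more than sampling noise between all replicates of a group (lowest ratio to the degrees of freedom 2.77), and each library was kept as a replicate. The fit was also run on simulated data, where part of the changed genes were not called, so a member that was not called may still have changed. Library depth of 51409 to 6449395 counts limits precision most in the smallest library. Promoters and motifs were read in Python 3.11.15 from GRCm39 with GENCODE annotation. The promoter windows printed are a selection, and other matches are not reported here.

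Alternatives were median-of-ratios scaling, no filter, DESeq2, the second table, 21 libraries (without the 3 that the study's averages appear to leave out), library set as a term, a replicate block by the number in the description or the title, fits of the compared groups alone, a fold change of at least 2 and each library left out. The block and the set term over 21 libraries were added after seeing the data.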

Additional observations from a re-analysis of the deposited data

Results flagged for a closer look

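Among 100 groups of 6 values of single members, 13 held a library whose gap to the nearest other exceeded Dixon's limit of 95%, where chance flags about 1 in 20 groups. Of these, 6 belong to the smallest library, resting mtDNA NZB replicate 2, in which 1 count equals 16.9 CPM after scaling: Wars1 at 84.7 CPM, Hars2 at 50.8 CPM, Sars1 at 339 CPM and Aars1, Iars2 and Farsa at 16.9 CPM each. Activated mtDNA NZB replicate 5 was high in Vars1 (503 CPM) and Iars2 (6.19 CPM). In mtDNA B6, resting replicate 4 was high in Iars1 (76.3 CPM) and held the only count of Mars2 among resting libraries (0.392 CPM). Resting replicate 6 was low in Farsa (71.8 CPM), activated replicate 6 high in Aars2 (28.1 CPM) and activated replicate 1 low in Vars2 (21.6 CPM).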

How the results depend on the processing

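Scaling by median of ratios changed no count of called members. With a fold change of at least 2, the cytosolic genes that rose numbered 1 in mtDNA B6 and 2 in mtDNA NZB, the mitochondrial genes that fell 1 and 0, those that rose in mtDNA NZB 1, members lower in resting mtDNA NZB 0 and related genes changed in mtDNA B6 5. Cytosolic genes that fell numbered 1 in mtDNA B6 without a filter and 1 in each haplotype by the second count table, and Aars1, which the main filter removes, is that gene. That table, the library set as a term and the fit of the groups compared each gave 0 members lower in resting mtDNA NZB, and the latter gave 0 mitochondrial genes that fell in mtDNA NZB; the cause was not tested. The sources do not say that a number marks a mouse, and the check did not show pairing by label number (3 of 9 pairs correlated over 0.1, 2 of 9 correlated best with their own number) or by title number (4 and 3 of 12). The replicate block by label number left 9 and 8 cytosolic genes that rose in mtDNA B6 and mtDNA NZB, with Eprs1 gained in mtDNA B6 (adjusted p = 0.0353) and Mars1, Farsa and Farsb lost in mtDNA NZB (0.0520, 0.229 and 0.197), and Aars2 lost in mtDNA B6 (0.0733). The block by title number left 9 and 9, with 1 that fell in mtDNA NZB. The label-number block over 21 libraries gave 1 mitochondrial gene that rose in mtDNA B6, and 1 that rose and 2 that fell in mtDNA NZB. Leaving out 1 library at a time, cytosolic genes that rose ranged from 8 to 11 in mtDNA B6 and from 10 to 12 in mtDNA NZB, where 0 to 1 fell. Mitochondrial genes that fell ranged from 2 to 4 and from 0 to 1 (0 without resting mtDNA NZB replicate 1), those that rose in mtDNA NZB from 2 to 3, members lower at rest from 0 to 1, and related genes from 9 to 11 and from 12 to 14. Over all genes the counts higher and lower in resting mtDNA NZB, 201 and 91, became 242 and 420 over the 21 libraries, 128 and 52 by DESeq2, 30 and 13 by the second table, 0 and 1 with the library set as a term and 0 and 0 in the fit of the groups compared. Of 2305 single values under an alternative, 2194 kept their side of the threshold, 62 lost a call, 49 gained one and 0 called values changed sign. Depth limits Aars1, Mars2 and Nars2, which were not tested, and Wars2 and Iars2, whose intervals are wide.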
